A study of Bos taurus with 2 samples.

Results

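The cytosolic and small heat shock proteins were taken as 10 genes: *HSPA1A*, *HSPA8*, *HSPH1*, *DNAJB1*, *HSP90AA1*, *HSP90AB1*, *HSPB1*, *HSPB6*, *HSPB8* and *CRYAB*. The array probes whose transcript accession belongs to one of these symbols in the RefSeq gene table were used, which gave 29 of the 43652 probes, and the array measured 26714 genes in all (gene symbols or, where no symbol matched, accessions). All 29 probes were well above background on both arrays, so no member was lost to a filter on dim signals.

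Total RNA of the longissimus thoracis (LT) muscle, a large muscle of the back, came from Japanese Black fetuses at 8.5 months after conception. The fetuses were taken at day 260 ± 8.3 of gestation. The LN group came from dams fed 60% of their nutritional requirement during gestation, and the HN group from dams fed 120%. Male-sorted semen of the same sire was used for all dams. The RNA of 4 fetuses was pooled in each group, those with the lowest BW in LN and those with the highest BW in HN, and each pool was hybridised to 1 one-colour array of the same slide. Diet and the selection of fetuses by BW therefore cannot be told apart, the spread between fetuses was not measured, and with 1 array per group the differences below have no replicate check and no p-value.

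Heat shock proteins are chaperones: they bind unfolded or damaged proteins, prevent their aggregation and help them to fold, or pass them on for degradation. The HSP70 proteins work in cycles of ATP hydrolysis with DNAJ co-chaperones, which bring the substrate, and with exchange factors, which release the nucleotide. HSP90 acts later, on nearly folded clients such as steroid receptors and kinases, and small heat shock proteins hold unfolding proteins without ATP. Skeletal muscle is rich in small heat shock proteins, which bind myofibrils and intermediate filaments under load. Many of these genes are switched on by heat shock factor 1, HSF1.

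None of the 10 genes and none of the 29 probes differed by more than 1.25-fold between the pools. The background was 18.0% of the 19554 genes with a value past 1.25-fold in either direction, and 16.9% of the 30639 probes above background on both arrays. The share depended on the signal: at a mean log2 signal of 12 or more, where 17 of the 29 member probes lay, the share was 5.58% of 2887 probes, beside 18.1% of the 27752 probes below that level, an order that turned round after normexp correction (5.54% and 4.24%). The log2 LN/HN of the members, the mean over the probes of each gene, ranged from -0.05 (*HSPB8*) to 0.24 (*HSPH1*). Their median was 0.05, or 1.04-fold, beside -0.0033 for all genes. Of the 10 genes, 8 had a value above 0 and 2 a value below 0, a split that was 9 to 1 without normalization and 7 to 3 after normexp background correction. Among all genes with a value, 49.3% were above 0. Of all genes, 72.7% lay no further from 0 than the furthest member. Ranked among all genes from lowest to highest log2 LN/HN, the members lay between the percentiles 39.4 (*HSPB8*) and 86.6 (*HSPH1*).

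**Figure D1:**
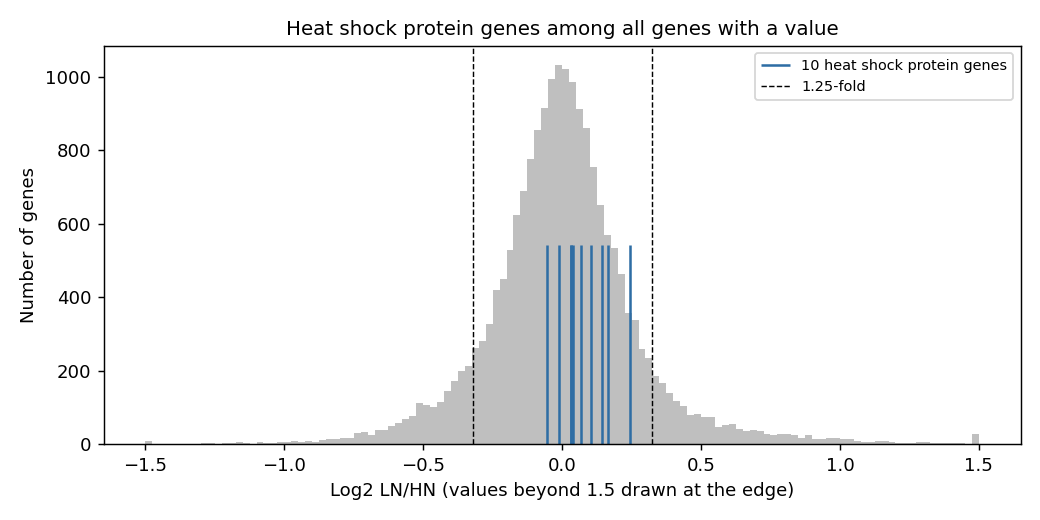
Number of genes (vertical axis) by log2 LN/HN (horizontal axis) for the 19554 genes with a value, from 1 array per group, with values beyond the axis drawn at its edge. Blue lines mark the 10 heat shock protein genes, which lie between -0.05 and 0.24, inside the dashed 1.25-fold lines; their split around 0 of 8 to 2 becomes 9 to 1 without normalization and 7 to 3 after normexp correction.

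The precision of a single difference was read from 3 sources. The 42 probes that were printed in several spots and above background gave an SD of 0.09 between the log2 LN/HN of spots, that is, a 95% limit of 0.17 or 1.12-fold, and 7 of the 29 member probes lay beyond it (5 higher and 2 lower in LN) beside 41.0% of all probes. These 42 probes had a median log2 signal of 8.31, and the 41.0% covers probes of every signal. Of the 29 member probes, 17 lay at 12 or more, so the 2 shares are not matched for signal. The scanner software gave each member probe an error of about 0.20 on its log2 LN/HN, and none of the 29 lay beyond its own 95% interval. Probes of the same gene had a median SD of 0.10 over 7139 genes. Across the arrays, 74.5% of the spots in HN and 70.9% in LN were well above background, no spot was saturated, and 8 spike-in RNAs above background, which both samples received alike, gave differences of -0.08 to 0.05 (log2). All of these cover the measurement only and leave out the spread between fetuses.

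**Figure D2:**
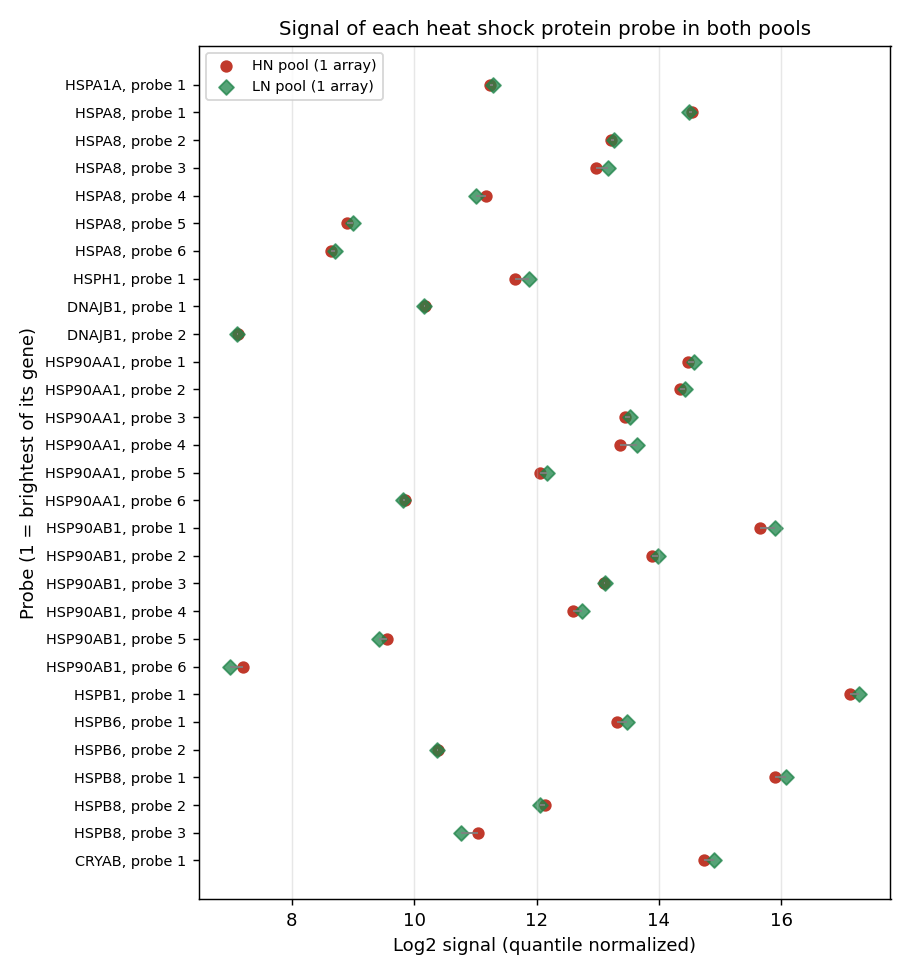
Quantile-normalized log2 signal (horizontal axis) of each of the 29 probes (vertical axis, numbered within a gene from the brightest) in the HN pool (red circles) and the LN pool (green diamonds), 1 array each, with a grey line joining the pools. Each pair lies close together, and the widest gap is 0.27; the level of a probe depends on its sequence as well as on the transcript, so levels are not to be compared between rows.

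*HSPA1A* encodes the stress-inducible HSP70, the gene that a heat shock or proteotoxic stress raises most readily. Its only probe read a log2 signal of 11.24 in HN and 11.29 in LN. The difference was 0.04, with a 95% interval of -0.36 to 0.44 from the software's error, and was -0.01 after normexp correction. In the gene table this entry also carries the name of its near-identical copy HSPA1B, so the value may hold signal from both copies. The next gene in that table, *HSPA1L*, which is mainly known from testis, read 3.87 in HN and 3.50 in LN on its only probe, 1.30-fold lower and not far above the limit of detection (2.27 in HN and 2.82 in LN).

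*HSPA8* encodes the constitutive HSP70, which also carries substrates to chaperone-mediated autophagy. Its 6 probes gave a mean log2 LN/HN of 0.03 (SD between probes 0.12), and the brightest probe alone gave -0.05, with 14.54 in HN and 14.49 in LN. The other probes read 13.21 in HN and 13.27 in LN, 12.97 and 13.17, 11.17 and 11.01, 8.90 and 9.01, and 8.65 and 8.70. Thus 4 probes were higher and 2 lower in LN, and the differences ran from -0.16 to 0.19. The 95% interval of the gene was 0.91-fold to 1.15-fold. It takes the errors of the 6 probes as independent, and an error that they share would make it wider. It therefore does not exclude a 1.25-fold difference.

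*HSPH1* encodes HSP110, a nucleotide exchange factor of HSP70 that helps to dissolve aggregates. It had the highest value of the 10 genes: 11.64 in HN and 11.88 in LN on its only probe, a log2 LN/HN of 0.24 or 1.18-fold. Its 95% interval reached from -0.16 to 0.64. The value was between 0.22 and 0.29 under every other normalization tried. With 1 probe, the settings on filters and probe choice could not change it.

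*DNAJB1* encodes HSP40, the J-domain partner that stimulates ATP hydrolysis by HSP70 and is itself induced by heat shock. Its probes read 10.18 in HN and 10.17 in LN, and 7.11 in HN and 7.10 in LN. Both probes thus gave a log2 LN/HN of -0.01, which became 0.01 without normalization. Its 95% interval, with the errors of its probes taken as independent, reached from -0.30 to 0.27.

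*HSP90AA1* encodes the inducible HSP90 alpha. Its probes read 14.48 in HN and 14.57 in LN, 14.34 and 14.44, 13.44 and 13.52, 13.37 and 13.64, 12.05 and 12.16, and 9.85 and 9.82. Only the dimmest of the 6 probes was lower in LN (-0.02), and the other probes were higher by 0.08 to 0.27 on the log2 scale. The gene value was 0.10 (SD between probes 0.09), or 1.07-fold. It kept its sign in every alternative run, between 0.08 and 0.12.

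*HSP90AB1* encodes the constitutive HSP90 beta, which shares much of its sequence with HSP90 alpha, so that probes of either gene may also take up transcripts of the other. Its 6 probes read 15.66 in HN and 15.91 in LN, 13.88 and 13.99, 13.11 and 13.12, 12.60 and 12.74, 9.55 and 9.43, and 7.20 and 6.99. The 4 brighter probes were higher in LN and the 2 dimmer ones lower, from 0.25 on the brightest to -0.21 on the dimmest. The mean was 0.03 (SD between probes 0.17), so the probes of this gene differed from each other by more than their mean differed from 0.

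**Figure D3:**
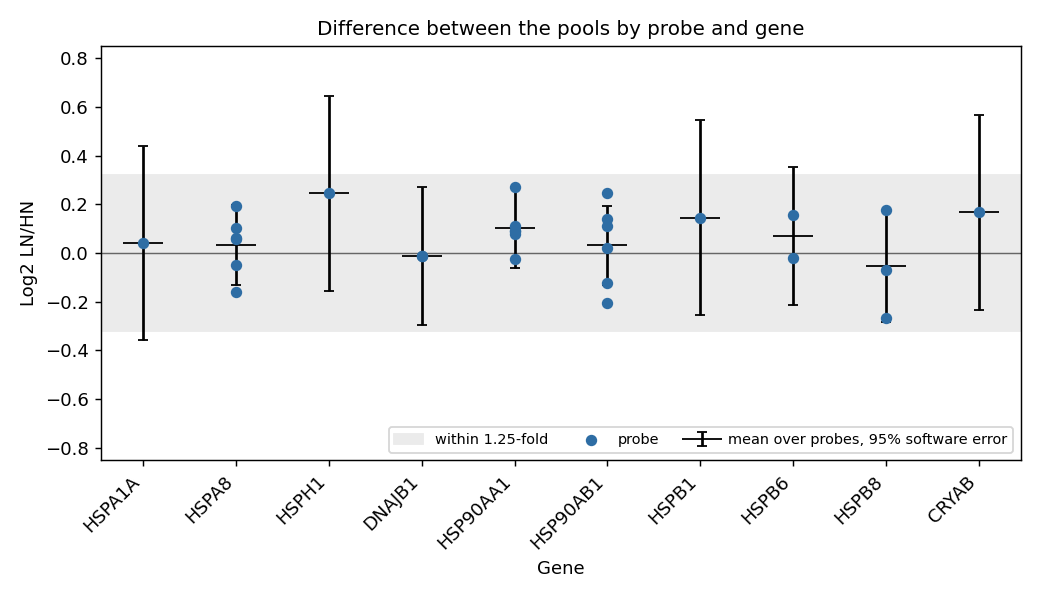
Log2 LN/HN (vertical axis) by gene (horizontal axis): blue points are probes, the black dash is the mean over the probes of a gene, and the black bar is its 95% interval from the scanner software's error, which covers measurement only (1 array per group). The bar takes the errors of a gene's probes as independent. All 29 probes lie within the grey band of 1.25-fold; *HSPA8*, *HSP90AA1*, *HSP90AB1*, *HSPB6* and *HSPB8* have probes on both sides of 0, and the sign of the mean turns for *HSPA1A* (normexp correction), *DNAJB1* (no normalization), *HSPA8* and *HSPB8* (brightest probe alone).

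The small heat shock proteins gave a median log2 LN/HN of 0.11 over 4 genes, beside 0.04 for the 4 genes of HSP70 and its partners and 0.07 for the 2 HSP90 genes. With so few genes these medians were not tested against each other. *HSPB1* encodes HSP27, which guards actin filaments. Its probe read 17.13 in HN and 17.27 in LN, a difference of 0.14 or 1.11-fold, with a 95% interval of 0.84-fold to 1.46-fold. *CRYAB* encodes alpha B-crystallin, a chaperone of desmin and titin. It read 14.73 in HN and 14.90 in LN, a difference of 0.17 or 1.12-fold, with a 95% interval of 0.85-fold to 1.48-fold. Both genes kept a value above 0 under every other normalization, from 0.09 to 0.17 for *HSPB1* and from 0.12 to 0.22 for *CRYAB*. With 1 probe each, the settings on filters and probe choice could not change their values, and every setting used the same arrays.

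The neighbour of *CRYAB* in the RefSeq gene table, *HSPB2*, a small heat shock protein of muscle, read 13.61 in HN and 13.60 in LN as the mean of 2 probes. Its log2 LN/HN was -0.01, with probes at -0.09 and 0.08. The adjacent pair thus gave 0.17 and -0.01, and the error of the gap between them was not estimated.

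*HSPB6* encodes HSP20, a phosphoprotein of muscle that is known for relaxing smooth muscle. Its brighter probe read 13.32 in HN and 13.48 in LN, and its dimmer probe 10.39 in HN and 10.37 in LN. The values of 0.16 and -0.02 averaged 0.07. *HSPB8* encodes HSP22, which works with BAG3 in the disposal of damaged filamin and other proteins of the Z-disc. Its probes read 15.90 in HN and 16.08 in LN, 12.13 in HN and 12.06 in LN, and 11.04 in HN and 10.77 in LN. The brightest was 0.18 higher in LN, and the others were lower, at -0.07 and -0.27. The gene mean of -0.05 (SD between probes 0.22) was the lowest of the 10 and turned to 0.18 when the brightest probe alone was used.

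Strong member probes were above 0 more often than weak ones, a difference that was not tested. The 17 member probes with a mean log2 signal of 12 or more came from 7 of the genes and had a median log2 LN/HN of 0.11, with 15 of them higher in LN (14 after normexp correction). The 12 member probes below that level, from 8 of the genes, had a median of -0.02, with 4 higher, which turned to 0.03 with 7 higher without normalization. Among all probes, 51.4% at 12 or more and 51.0% below were above 0, or 55.7% and 51.8% without normalization. Quantile normalization holds the medians of all probes near 0 at every signal, so those were read without normalization: 0.0171 for the 2887 probes at 12 or more and 0.0094 for the 27752 probes below, beside 0.12 and 0.03 for the member probes. The level of 12 was chosen after the values were seen, probes of the same gene share their transcript, and the part of splice forms, cross-hybridisation or probe position was not tested.

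Other chaperones and their partners were described from 10 lists that hold 90 genes, of which 79 were matched on the array and 77 had a value. Their median log2 LN/HN was 0.06, and in the other settings it ran from 0.04 (75th percentile) to 0.10 (brightest probe). There were 50 genes above 0 and 27 below, beside 49.3% above 0 among all genes. Past 1.25-fold, 4 were higher in LN and 2 lower, beside 8.85% higher and 9.11% lower among all genes. The split of all genes past 1.25-fold was 49.3% higher in the values reported, but 30.7% after scaling to the 75th percentile and 39.3% without normalization.

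One gene stood apart by size. *FKBP5*, a co-chaperone of HSP90 in steroid receptor complexes whose transcription glucocorticoids are known to induce, was the only one of the 77 past 1.5-fold (background 3.16% higher in LN) and past 2-fold (background 0.711% higher in LN). Its probes read 9.10 in HN and 10.46 in LN, 9.26 and 10.56, and 5.24 and 6.41. All 3 were higher in LN, by 1.17 to 1.35, and the fourth probe was not well above background on either array. The gene value was 1.28, or 2.42-fold, and it was 1.00 after normexp correction, just under 2-fold. The related *FKBP4*, which competes for the same complexes, gave 0.10, with 10.33 in HN and 10.43 in LN.

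The 15 HSP90 co-chaperones with a value, *FKBP5* included, had a median of 0.10, with 11 above 0. Apart from *FKBP5* they ran from *TOMM34* at -0.16 to *CHORDC1* at 0.30 or 1.23-fold, all within 1.25-fold. *SMYD1*, a muscle methyltransferase that works with HSP90 in myosin assembly, read 13.07 in HN and 13.20 in LN. *UNC45B*, the myosin chaperone of muscle, was not matched on the array.

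The regulators of the heat shock response were nearly level. *HSF1* gave 0.08, with its 3 probes at 0.07, 0.07 and 0.10, and *HSF2* gave 0.09, the highest of the list. The lowest was *HSBP1*, which binds and restrains HSF1, at -0.12. The list of 4 measured genes had a median of 0.03, and none was past 1.25-fold.

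**Figure D4:**
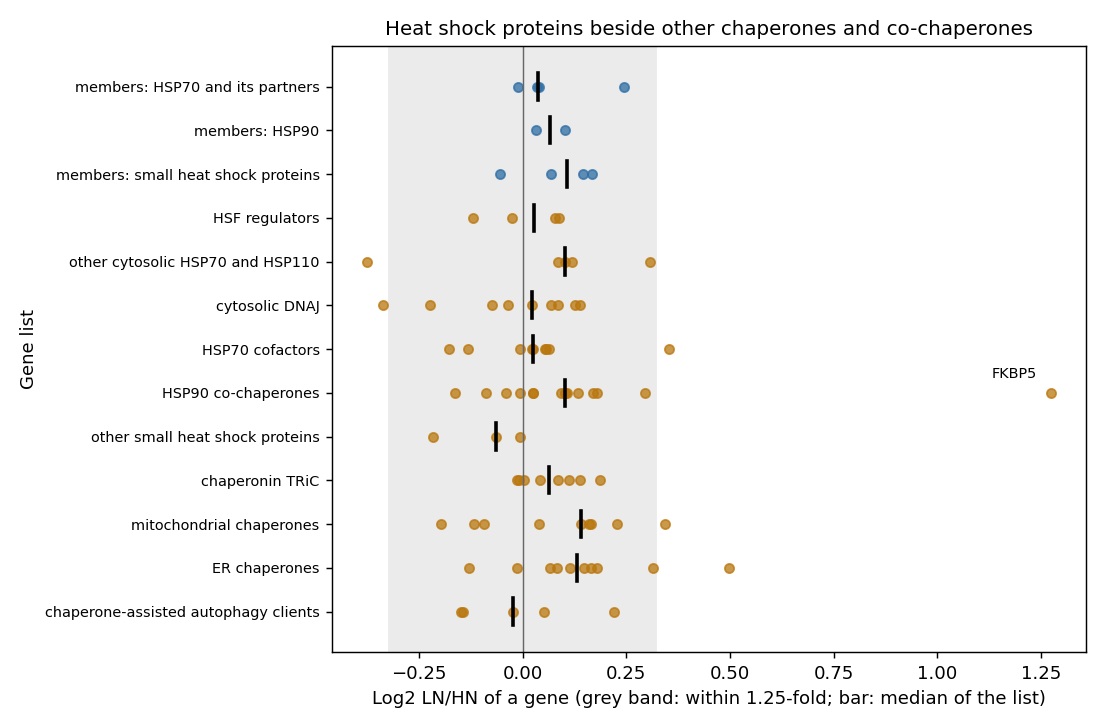
Log2 LN/HN (horizontal axis) of each gene with a value in the 3 groups of heat shock protein members (blue) and in 10 lists of other chaperones and partners (orange), with 1 array per group, the list median as a black bar and the range within 1.25-fold in grey. *FKBP5*, at 1.28, is the only gene far outside the band.

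Among the partners of HSP70, the 9 cofactors had a median of 0.02. *BAG2*, an exchange factor that inhibits the ubiquitin ligase CHIP, was highest at 0.35 or 1.28-fold (11.21 in HN and 11.56 in LN), and *BAG5* lowest at -0.18. *BAG3*, the partner of *HSPB8*, gave 0.06 over 3 probes that ran from -0.05 to 0.12. The 9 cytosolic DNAJ genes with a value had a median of 0.02, from *DNAJB5* at -0.34 to *DNAJC7* at 0.14. *DNAJB5* was 1.26-fold lower in LN, with 10.06 in HN and 9.73 in LN and all 3 probes below 0. It no longer passed 1.25-fold without normalization, after normexp correction, in the authors' normalized values or by its brightest probe.

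The other HSP70 and HSP110 genes with a value had a median of 0.10 over 5 genes, from *HSPA1L* at -0.38 to *HSPA2* at 0.31. The other small heat shock proteins were measured for only 3 of 7 genes, with *HSPB2* highest at -0.01, *ODF1* at -0.07 and *HSPB3*, a muscle protein, lowest at -0.22. *HSPB9*, known from testis, and *CRYAA*, known from the lens, were not well above background on either array. The 8 subunits of the chaperonin TRiC, which folds actin and tubulin, had a median of 0.06, from *CCT4* at -0.01 to *CCT6A* at 0.19.

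Chaperones of the organelles were described from a list each. The mitochondrial list gave 0.14 over 9 genes, from *DNAJA3* at -0.20 to *CLPB*, a disaggregase, at 0.34 or 1.27-fold. The list of the endoplasmic reticulum gave 0.13 over 10 genes, from *DNAJB9* at -0.13 to *SDF2L1*, a partner of its DNAJ proteins, at 0.50 or 1.41-fold with low signals (4.88 in HN and 5.37 in LN), and the median of the list was 0.23 by the brightest probe of each gene. The list of genes linked to chaperone-assisted or chaperone-mediated autophagy gave -0.02 over 5 genes, from *SQSTM1* at -0.15 to *LAMP2* at 0.22. Its median was -0.15 with no filter on dim probes and 0.06 by the brightest probe of each gene. *CLPB* fell back within 1.25-fold after scaling to the 75th percentile, and *CLPB*, *SDF2L1* and *HSPA1L* all did after normexp correction. The difference between the lists was not tested.

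Skeletal muscle markers were strong in both pools, with *ACTA1* at 17.57 in HN and 17.53 in LN, as in skeletal muscle. The pools were not level in the markers of cell types. The log2 of the summed signal of the 6 fibroblast markers was 18.42 in HN and 18.77 in LN, and all 6 were higher in LN, 4 of them past 1.25-fold (background 8.85% higher). The sum of the 5 endothelial markers was 14.98 in HN and 14.61 in LN, with 4 of 5 lower, 1 of them past 1.25-fold (background 9.11% lower). The sum of the 5 macrophage markers was 12.79 and 12.46, with 4 of 5 lower and 2 past 1.25-fold. That of the 6 smooth muscle markers was 14.69 and 14.54, with 5 of 6 lower and 3 past 1.25-fold. The 7 skeletal muscle markers with a value gave 21.19 in HN and 21.11 in LN, with 6 lower, 1 of them past 1.25-fold, and the remaining gene, *TNNC2*, level because its probe held the same rank on both arrays and quantile normalization gives equal ranks the same value. By the brightest probe of each gene, 4 skeletal muscle markers were lower and 2 higher, and their median moved from -0.15 to -0.02. Slow fibre markers gave 20.78 and 20.73, with 5 of 6 lower and 1 higher, none past 1.25-fold. By the brightest probe, 3 of them were lower and 2 higher. Fast fibre markers gave 20.58 and 20.48, with 3 of 5 lower, 1 higher and *TNNC2* level. Of these, *MYH1* was past 1.25-fold, at -0.50. Erythroid markers gave 14.08 and 14.07, with 4 of 5 lower. Adipocyte markers gave 7.42 and 7.57, from 2 genes and with *LEP* not well above background. The part of these shifts in the values of the heat shock proteins and their partners was not tested, and in bulk RNA fewer cells of a type and less RNA per cell cannot be told apart.

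**Figure D5:**
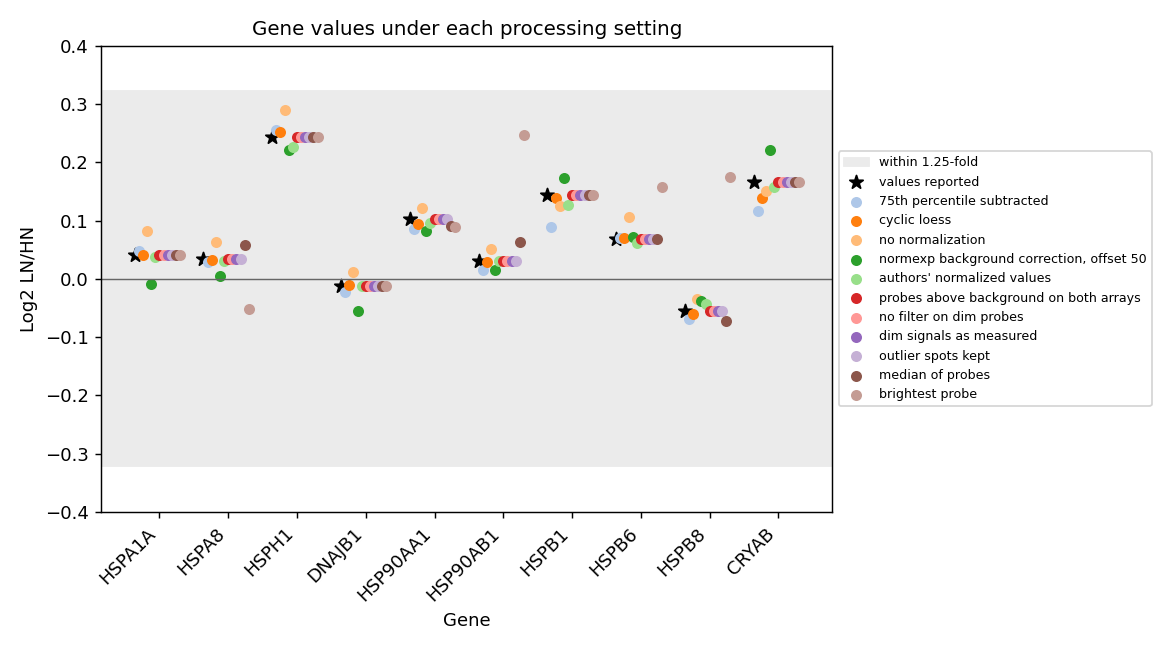
Log2 LN/HN (vertical axis) of the 10 genes (horizontal axis) as reported (black stars) and under each of 11 alternative settings (coloured points), from 1 array per group. No value leaves the grey band of 1.25-fold; the sign turns for *HSPA1A* (normexp correction), *DNAJB1* (no normalization), and *HSPA8* and *HSPB8* (brightest probe).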

How the data were processed

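Each pool was measured once on an Agilent bovine (v2) one-colour array. The authors deposited spot intensities extracted with Agilent Feature Extraction 11.0.1.1 (background-subtracted processed signal, with flags and an error per spot) and a table of normalized values, read as log2 from their range, which they had made by quantile normalization and which holds 30027 probes. From the deposited intensities, control and outlier-flagged spots were left out, log2 signals were quantile-normalized (limma 3.58.1 in R 4.3.3) because the authors did so, spots of a probe were averaged, and the probes of a gene were averaged (Python 3.11.15, pandas 2.3.3). A probe not well above background on 1 array was given a bound from the detection limit, and a probe dim on both was left out. Of the 43652 probes, 26742 were matched to a symbol of the ARS-UCD2.0 RefSeq table. The number of arrays, 1 per group, limits the precision, and no test was possible. The 1.25-fold level is a size for description. The normexp alternative used median spot and background signals, since the deposited columns have no mean signal. It also added an offset of 50 to every corrected signal, beside a median processed signal of 49.1 in HN and 48.4 in LN. Such an offset shrinks the ratios of dim probes most.

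The 10 genes are all named with every probe. From each list of partners the highest and lowest gene, genes past 1.5-fold, *HSF1*, *HSF2*, *BAG3* and *UNC45B* are named; other genes (*HSPA1L* and *HSPB2* as neighbours, *SMYD1*, *FKBP4*, *CHORDC1*, *ODF1*, *HSPB9* and *CRYAA*) were named after their values were seen. The members and lists were chosen with earlier results of these data known. The summary code was tested on simulated data.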

Additional observations from a re-analysis of the deposited data

How the results depend on the processing

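No paired analysis was possible because each group has 1 array. Of 12 other settings listed for the processing, 11 were run; naming probes by a gene name column was not run, because the scanner tables used here hold no such column. The count of heat shock protein genes past 1.25-fold was 0 in all 11. Their median log2 LN/HN of 0.05 lay between 0.04 and 0.09 in every setting but the brightest probe per gene, which gave 0.15; *HSP90AB1* then gave 0.25, *HSPB6* 0.16 and *HSPB8* 0.18. The count of partner genes past 1.25-fold, 6 of 77, was 2 after normexp correction. That setting also changed the signal column and the background model and added the offset of 50. Among all genes the counts past 1.25-fold were 1731 higher and 1781 lower as reported, and 1191 and 2693 with the 75th percentile. They were 319 and 386 after normexp correction with its offset, and 3251 and 3592 with no filter on dim probes. The part of each step in these shifts was not tested. All 29 member probes were bright enough on both arrays that filters on dim probes left their values as they were.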
